A study of Mus musculus with 6 samples.

Results

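The genes of the proteasome were examined in RNA from 2 dissected regions of the mouse embryonic lung. They were chosen by symbol alone: every probe set whose single symbol in the platform annotation begins with Psma, Psmb, Psmc, Psmd, Psme, Psmf or Psmg followed by a digit. This gave 58 probe sets of 12488 on the array, for 46 genes. Of these, 44 encode subunits, activators or assembly chaperones of the proteasome, and 2 share only the prefix. The branching region was taken from the right and left lungs at embryonic day E11.5, and the non-branching region was the main bronchi with part of the trachea at the same stage. Total RNA of each region was measured on 3 arrays, 1 sample each, called replicates 1 to 3 here. No strain, genotype or treatment is given in the sources used here, and none says whether the replicates came from separate embryos, so errors and p cover the spread among these samples only, and that spread may be technical. The family was taken up with results of this comparison already known, and its differences and adjusted p are therefore a description.

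The proteasome is the large protease that degrades proteins tagged with ubiquitin. Its barrel-shaped core is built from alpha subunits, which form the outer rings and the gate, and beta subunits, some of which carry the proteolytic sites. A regulatory particle caps the core: its base holds a ring of ATPases that unfold substrates, and its lid removes the ubiquitin chains. Other activators can replace this cap, inducible beta subunits can replace the constitutive ones in immune cells and under interferon, and dedicated chaperones assemble the parts. All dividing cells use the proteasome, which also degrades cyclins.

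Most genes of the complex had a slightly higher mean signal in the branching region. Of the 42 subunit, activator and chaperone genes tested, 35 had a higher and 7 a lower mean log2 signal in branching, and the median difference was 0.15 on the log2 scale, or 1.11-fold. Each gene was read by its brightest probe set, and the 35 include Psmb5, Psmd11 and Psmg3, whose probe sets differed in sign. Over all 6798 genes tested, the median difference was -0.01 and 49% of genes were higher in branching. The single gene that passed was Psmd12, a scaffold subunit of the lid, which rose 2.57-fold (adjusted p = 0.0200 by limma over all probe sets). Thus 1 of 42 genes was called higher, against a background of 1% of all genes tested, and 0 were called lower, against 1.32%. The call of Psmd12 rests on 1 probe set of less specific design. It was made in 9 of 17 fits, among them 1 of the 6 with an array left out. At an unadjusted p under 0.05, 8 of the 42 were higher and 1 lower, while 487 of the 6798 were higher and 573 lower. The 8 include Psmc4, whose non-branching signals (143.7, 20.5 and 35.0) all lay below the background signal of 147 described further on. A looser threshold, an adjusted p under 0.10, called 3 of the 42 higher (Psmd12, Psmc2 and Psme3), against 1.84% of all genes tested, and 0 lower, against 2.4%.

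Promoter sequence is shown for Psmd12 and for the activator genes Psme3 and Psme1, whose signals separated the regions in opposite directions, so that the genes can be set beside each other. Each line gives the 250 bases before the annotated transcription start, 5′ to 3′ on the gene's strand, from RefSeq on build GRCm38.p6. Capitals mark matches to the motifs named after the sequences.
Psmd12, chr11:107479278-107479527, + strand: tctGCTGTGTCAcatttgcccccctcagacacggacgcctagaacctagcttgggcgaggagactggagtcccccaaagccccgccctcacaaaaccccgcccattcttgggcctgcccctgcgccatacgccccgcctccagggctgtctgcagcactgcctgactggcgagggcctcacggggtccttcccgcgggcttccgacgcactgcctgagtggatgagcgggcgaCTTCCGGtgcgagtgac
Psme3, chr11:101315963-101316212, + strand: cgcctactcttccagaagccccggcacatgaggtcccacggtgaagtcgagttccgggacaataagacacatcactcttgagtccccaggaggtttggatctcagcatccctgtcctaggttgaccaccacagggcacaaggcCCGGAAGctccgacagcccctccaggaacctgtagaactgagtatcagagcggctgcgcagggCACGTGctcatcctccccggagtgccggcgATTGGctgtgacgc
Psme1, chr14:55578244-55578493, + strand: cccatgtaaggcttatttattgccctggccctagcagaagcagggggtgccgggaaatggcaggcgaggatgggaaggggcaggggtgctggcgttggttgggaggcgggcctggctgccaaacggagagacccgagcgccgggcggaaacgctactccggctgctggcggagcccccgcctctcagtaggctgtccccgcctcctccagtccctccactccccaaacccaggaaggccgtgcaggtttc

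Motifs were searched on both strands in this window, and a match describes letters only. The ETS motif CCGGAAG stood 17 to 11 bases before the start of Psmd12, as CTTCCGG on the reverse strand, and 107 to 101 bases before that of Psme3. Psmd12 also held the core of the antioxidant response element, TGACNNNGC, 247 to 239 bases before its start. Psme3 held an E-box, CACGTG, and an NF-Y box, CCAAT on the reverse strand. The window of Psme1 held none of the 6 motifs searched, which besides these were those of nuclear respiratory factor 1 and of interferon response elements.

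Over the family, 35 of the 42 tested genes matched 37 RefSeq promoters. CCGGAAG was found in 13 of the 37 (35.1%), against 6.91% of all 32851 promoters in the table and 11.3% of the 8409 promoters of genes on the array. The nuclear respiratory factor 1 motif was found in 6 (16.2%, against 6.8% on the array), CCAAT in 12 (32.4%, against 34.6%), TGACNNNGC in 5 (13.5%, against 11.7%), CACGTG in 4 (10.8%, against 8.22%) and the interferon response motif in 3 (8.11%, against 2.72%). The 12 genes with CCGGAAG had a median log2 difference between regions of 0.21 and the 23 without it one of 0.13. For CCAAT these medians were 0.24 in 12 genes and 0.12 in 23, for the nuclear respiratory factor 1 motif 0.21 in 6 and 0.12 in 29, and for TGACNNNGC 0.19 in 5 and 0.14 in 30. They ran the other way for CACGTG, with 0.06 in 4 genes and 0.14 in 31, and for the interferon response motif, with 0.04 in 3 and 0.17 in 32. These differences between genes with and without a motif were not tested.

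**Figure D1:**
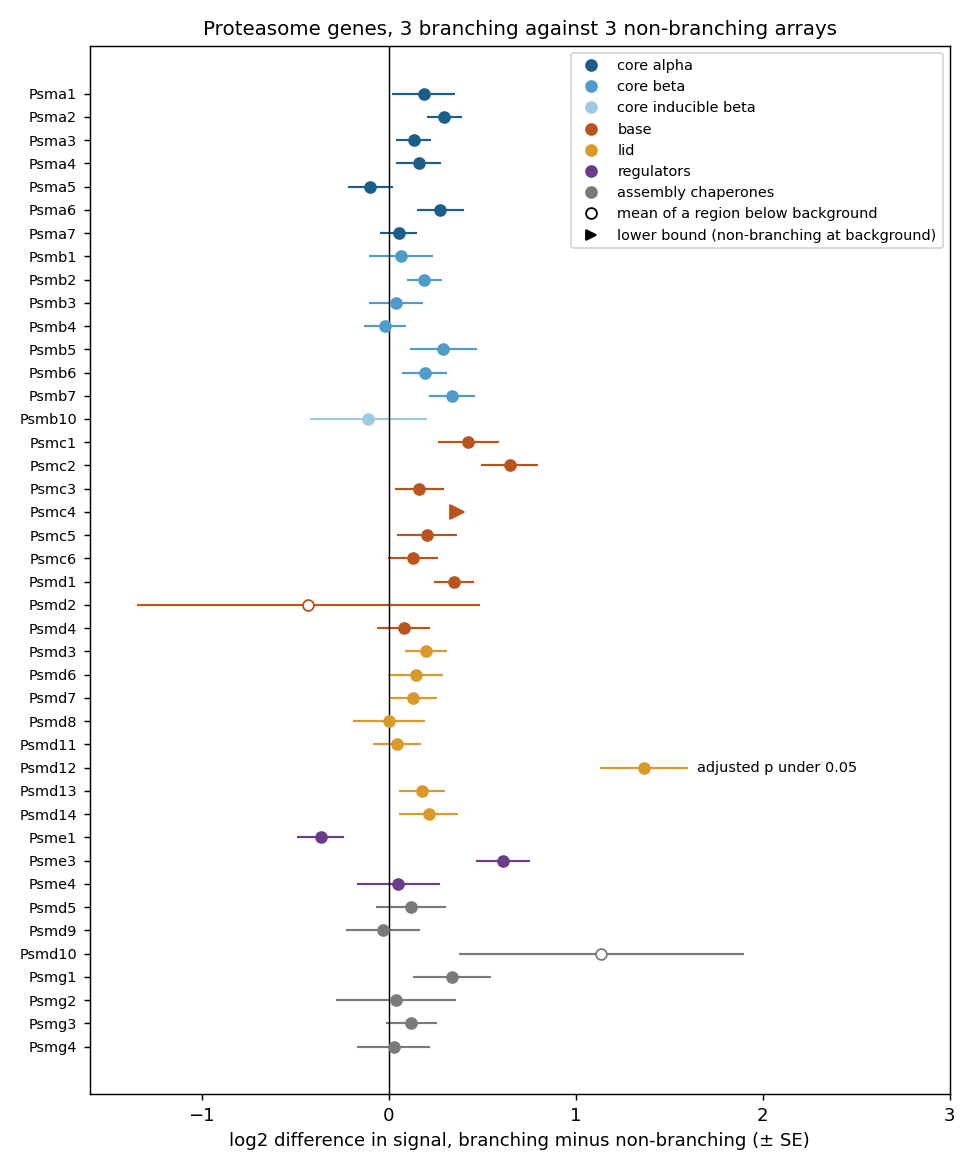
Log2 difference in signal (x axis, branching minus non-branching, ± SE of the limma fit, n = 3 arrays per region) of the 42 tested proteasome genes (y axis), coloured by part of the complex. Most points lie just right of 0, Psmd12 is at 1.36, and Psme1 is the gene farthest left among those with means above background in both regions, at -0.37. Open points (Psmd2, Psmd10) have a region mean below background. The arrowhead marks Psmc4, drawn at 0.37, the lower bound of its estimate with values below background raised to it.

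Array scaling and marker genes were checked first. The array medians ran from 212 to 229 on the linear scale, and a signal of 147 was taken as background, the 95th percentile of control probe sets for transcripts of bacteria and yeast. Of the tested family genes, 40 of 43 had means above background in both regions. All 12 lung epithelium genes on the array and 6 of 7 lung mesenchyme genes exceeded background on at least 1 array. The array medians also lay above background, so this count does not establish the identity of the tissue. Other marker lists also differed between the regions. All 20 cell cycle genes tested were higher in branching (median 0.44, 3 called), as were 9 of 10 red blood cell genes (median 0.43, 3 called). The summed signal of the cell cycle list was 44468 to 48846 on the branching and 34929 to 35945 on the non-branching arrays, and that of the red blood cell list 137708 to 152892 and 88938 to 96446. Lower in branching were 10 of 11 smooth muscle genes (median -0.70, 6 called), 9 of 10 muscle genes of heart and skeleton (median -0.48, 3 called) and 10 of 10 endothelial genes (median -0.49, 1 called). The leukocyte list had a median of 0.09 with 0 called, and 3 of its 13 genes on the array were at background on all 6 arrays. The medians were 0.16 for 7 neuronal and neural crest genes (1 called lower), 0.04 for 11 lung epithelium genes (0 called) and 0.68 for 6 lung mesenchyme genes (2 called higher and 1 lower). Single genes ran from -1.28 to 1.99 in the lung epithelium list and from -1.38 to 2.90 in the lung mesenchyme list. Whether the mix of cells has a part in the family's difference was not tested, and in such samples fewer cells of a type and less RNA per cell cannot be told apart.

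Among the alpha subunits of the core, 6 of 7 tested genes were higher in branching and none was called. Psma2, a subunit of the outer ring, had signals of 4133.4, 3793.9 and 3735.4 in branching and 3005.8, 3319.4 and 3164.5 in non-branching. All 3 branching values lay above the non-branching ones, with a log2 difference of 0.30 ± 0.09 (SE, n = 3 per region, adjusted p = 0.165). Psma6 differed by 0.27 ± 0.13 (adjusted p = 0.360), but its highest non-branching value, 2422.5 on replicate 3, lay above its lowest branching value, 2377.5. Psma1, Psma3, Psma4 and Psma7 differed by 0.05 to 0.19, and their groups overlapped. Psma5 had the opposite sign, at -0.10 ± 0.12. In the alpha ring 5 of 7 differences exceeded 1 SE, and over the whole family 24 of 42 did (57.1%). The share was 48.3% over all genes tested and 55.5% over the brighter 3399 of them.

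Of the constitutive beta subunits, 6 of 7 tested genes were higher in branching on their brightest probe set, and none was called. Psmb7 encodes the subunit with the trypsin-like site. Its signals were 1683.3, 1449.1 and 1613.8 in branching and 1356.0, 1225.7 and 1168.4 in non-branching, so the groups did not overlap (0.34 ± 0.12, adjusted p = 0.237, on a probe set of less specific design). Psmb2, a subunit without a proteolytic site, had 4111.7, 3887.4 and 3821.4 against 3659.0, 3251.2 and 3453.5, again without overlap (0.19 ± 0.09, adjusted p = 0.379). Psmb6, which carries the caspase-like site, differed by 0.19 ± 0.12 (adjusted p = 0.515) and its groups overlapped. Psmb5 carries the chymotrypsin-like site. Its brightest probe set gave 1113.5, 1272.9 and 1472.7 in branching and 1308.5, 994.3 and 876.4 in non-branching (0.29 ± 0.18, adjusted p = 0.511). A second, dimmer probe set of the same gene had the other sign: 321.9, 401.5 and 361.4 in branching against 378.5, 484.6 and 517.6 in non-branching (-0.34 ± 0.22, adjusted p = 0.539). No direction can therefore be given for Psmb5, although the count above takes it as higher by its brightest probe set, of less specific design. Psmb1, Psmb3 and Psmb4 differed by 0.07, 0.04 and -0.02 on their brightest probe sets, that of Psmb4 being of less specific design. Other probe sets of Psmb1 gave 0.40 ± 0.16 and 0.90 ± 0.70, and another of Psmb4 gave -0.94 ± 0.60. The last 2 of these had several values below background.

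The inducible beta subunits, which form the immunoproteasome, were below background except for Psmb10. Psmb8 had signals of 14.5 to 66.1 and Psmb9 of 21.7 to 49.1 over the 6 arrays, below background on each, and neither was tested. Psmb10, the inducible counterpart of Psmb7, had 666.0, 518.2 and 418.5 in branching and 689.9, 759.0 and 346.1 in non-branching. The highest and the lowest of these values were both non-branching, and the difference was -0.11 ± 0.31 (adjusted p = 0.919). Among the 11 genes tested of antigen presentation and interferon response, 5 were higher and 6 lower in branching, none was called, and the median difference was -0.05. The peptide transporter gene Tap1 and the class I light chain gene B2m differed by 0.30 ± 0.36 and -0.12 ± 0.24. In Pdia3 (0.60 ± 0.17) and H2-D1 (0.40 ± 0.16) all branching values lay above the non-branching ones. In Ifit3, dim in branching, they lay below (-1.51 ± 0.61). These are 18.2% and 9.09% of the list, against 10.2% and 11.7% of all genes tested. Those genes thus showed no common direction beside the inducible subunits.

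In the base of the regulatory particle, 8 of 9 genes were higher in branching and none was called. The median difference was 0.20, and it was 0.31 or 0.10 when branching replicate 1 or 3 was left out and 0.30 when non-branching replicate 2 was. Differences between the parts of the complex were not tested. In 4 of the 9 genes the branching values lay above all non-branching values, against 10.2% of all genes tested. These 4 include Psmc4, whose non-branching values all lay below background. Psmc2, an ATPase of the unfolding ring, had 1568.1, 1718.7 and 2050.5 in branching and 1327.1, 1017.5 and 1066.8 in non-branching. These groups were clearly apart, with a difference of 0.65 ± 0.15 or 1.56-fold, but the gene did not pass (adjusted p = 0.0696). Psmc1, the ATPase whose tail helps to open the gate of the core, had 1271.0, 1191.3 and 1231.9 against 1147.4, 876.2 and 765.8 (0.43 ± 0.17, adjusted p = 0.274). Its branching values lay close together, and non-branching replicate 1 came near to them.

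Psmd1, the large scaffold subunit of the base, had 2996.3, 2843.7 and 3207.2 in branching and 2615.0, 2218.0 and 2282.6 in non-branching. No value overlapped, and the difference was 0.35 ± 0.11 (adjusted p = 0.155). Psmc4, another ATPase, had 152.9, 213.5 and 208.5 in branching and 143.7, 20.5 and 35.0 in non-branching. Because all 3 non-branching values were below background, only a lower bound of its estimated difference can be given. With values below background raised to it, the estimate was 1.29-fold higher in branching (adjusted p = 0.315). The gene was not called in the reported fit either (adjusted p = 0.228). The remaining ATPase genes Psmc3, Psmc5 and Psmc6 differed by 0.16 ± 0.13, 0.20 ± 0.16 and 0.13 ± 0.13, with overlapping groups. Psmd4, a ubiquitin receptor, differed by 0.08 ± 0.14. Psmd2, the other scaffold of the base, lay mostly below background, with 216.0 on branching replicate 2 and 343.6 on non-branching replicate 2 as its 2 highest values.

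In the lid, 7 of 8 genes lay higher in branching, the median difference was 0.16, and Psmd12 stood apart from the others. Psmd12 had signals of 926.4, 882.5 and 951.4 in branching and 508.6, 279.4 and 320.6 in non-branching. The branching values lay within a narrow band and all non-branching values lay far below it, the nearest being replicate 1. The mean signal was 920.1 ± 34.9 (SD, n = 3) in branching and 369.5 ± 122 in non-branching, and the log2 difference was 1.36 ± 0.23 (SE, adjusted p = 0.0200). The gene was read by 1 probe set, of a less specific design, so no second measurement of it was at hand. Its size kept between 1.19 and 1.62 whichever array was left out, but the call did not. Leaving out branching replicate 1, 2 or 3 gave an adjusted p of 0.0630, 0.0629 and 0.0899, and leaving out non-branching replicate 2 or 3 gave 0.0638 and 0.0873. When non-branching replicate 1 was omitted it passed (adjusted p = 0.00963). It also did not pass when the variance was modelled without a trend (adjusted p = 0.125) or when dim probe sets were kept (adjusted p = 0.0788).

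**Figure D2:**
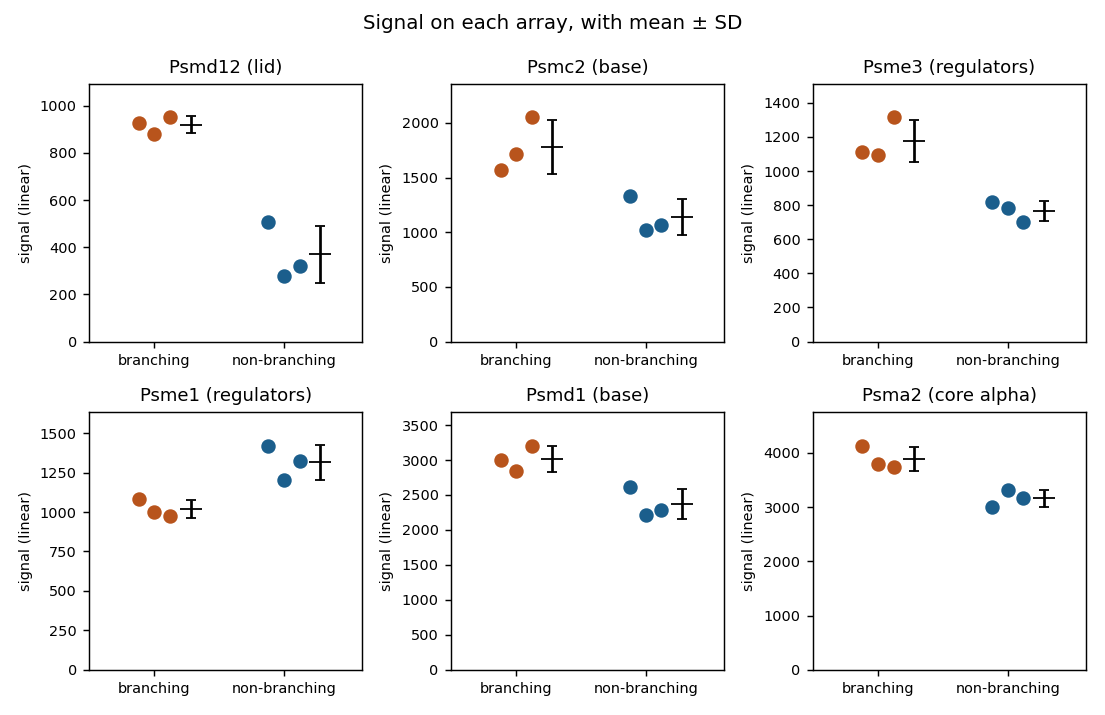
Signal of 6 proteasome genes on each array (y axis, linear scale from 0; 3 points per region, replicates 1 to 3 from left to right; black marks, mean ± SD). The regions do not overlap in any panel: Psmd12, Psmc2, Psme3, Psmd1 and Psma2 are higher and Psme1 is lower in branching.

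The other lid subunits had smaller differences. Psmd13 had 1291.4, 1413.6 and 1210.8 in branching and 1169.8, 1148.9 and 1137.0 in non-branching, which did not overlap (0.18 ± 0.12, adjusted p = 0.563). Psmd14, the deubiquitinating enzyme of the lid, differed by 0.21 ± 0.16 (adjusted p = 0.601), and Psmd3 by 0.20 ± 0.11 (adjusted p = 0.469). Psmd6 and Psmd7 differed by 0.14 and 0.13, within their errors or close to them, and Psmd8 by less than 0.01. Psmd11, a lid subunit that contacts the alpha ring, was read by 3 probe sets that did not give 1 answer. The brightest had 2025.7, 1550.8 and 1693.5 against 1623.5, 1678.3 and 1779.5 (0.04 ± 0.13, adjusted p = 0.919). Another had 673.9, 581.8 and 625.8 against 494.8, 398.4 and 410.2, without overlap (0.53 ± 0.18, adjusted p = 0.213), and the one of less specific design differed by -0.09 ± 0.17.

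The activators that bind the core in place of the regulatory particle did not share a direction. Psme3 encodes the nuclear activator that forms a ring of its own. Its signals were 1108.7, 1096.5 and 1315.1 in branching and 817.0, 784.2 and 700.8 in non-branching, with no overlap, and the difference was 0.61 ± 0.14 or 1.53-fold (adjusted p = 0.0696). Psme1, the alpha chain of the interferon-inducible activator, had 1083.5, 997.7 and 977.6 in branching and 1421.1, 1201.8 and 1322.4 in non-branching. It was the 1 gene of the family whose branching values all lay below the non-branching ones, against 11.7% of all genes tested (-0.37 ± 0.13, adjusted p = 0.222). Neither gene passed, and both kept their sign in each of the 6 fits with an array left out. Psme4, a large single-chain activator, differed by 0.05 ± 0.22 (adjusted p = 0.948). Psma8, Psmb11, Psmf1 and Psme2 were not analysed here, since no probe set carries those symbols alone.

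Chaperones that assemble the proteasome did not differ clearly, and 5 of 7 differences were smaller than their SE. In branching, 6 of 7 genes were higher, the median difference was 0.12, none was called, and in none did the groups separate. Psmg1, a chaperone of the alpha ring, had 841.9, 1061.7 and 1344.9 in branching and 741.4, 1047.2 and 765.4 in non-branching (0.34 ± 0.21, adjusted p = 0.510). The difference was 0.17 with branching replicate 3 left out and 0.51 with branching replicate 1 left out. Psmd10, or gankyrin, a chaperone of the base, had 237.2, 59.7 and 235.4 against 29.8, 158.7 and 66.3, values on both sides of background in each region (1.14 ± 0.76, adjusted p = 0.559). With values below background raised to it, the difference of Psmd10 was 0.42. Psmg3 had 1506.1, 1520.9 and 1347.3 against 1327.9, 1544.1 and 1170.6 on its brightest probe set, of less specific design (0.12 ± 0.14, adjusted p = 0.757). Its other probe set scattered more widely and had the other sign, with 94.8, 146.8 and 376.6 against 459.7, 384.3 and 144.2 (-0.76 ± 0.58, adjusted p = 0.612). Psmd5, Psmd9, Psmg2 and Psmg4 differed by -0.03 to 0.12.

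**Figure D3:**
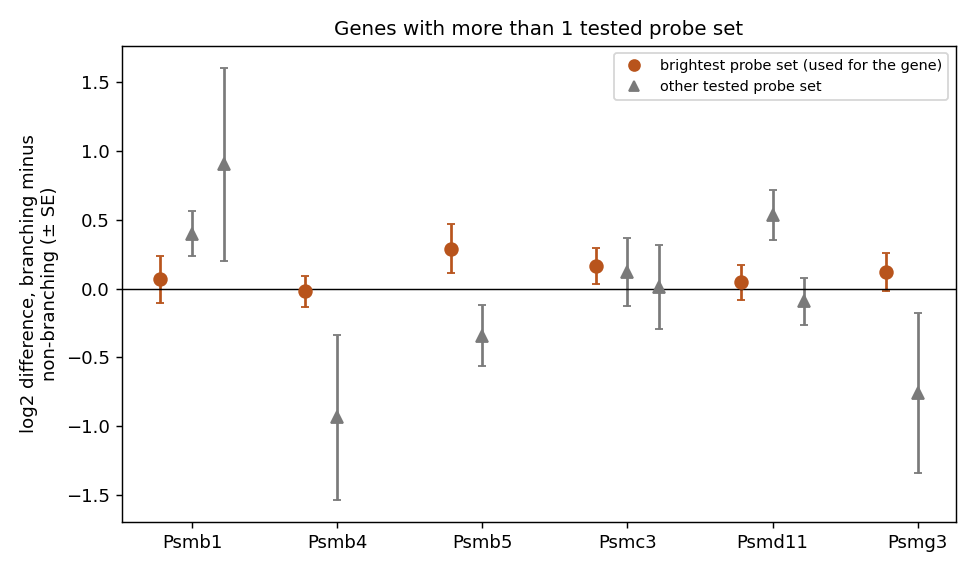
Log2 difference (y axis, branching minus non-branching, ± SE) of each tested probe set of the 6 proteasome genes that have more than 1 (x axis). Circles mark the brightest probe set, which stands for the gene, and triangles the others, and the probe sets of Psmb5, Psmd11 and Psmg3 lie on both sides of 0.

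The 2 genes that carry the prefix without being subunits are described apart. Psme3ip1, whose product interacts with that of Psme3, had 819.3, 831.0 and 798.2 in branching and 616.9, 630.8 and 737.7 in non-branching. Its groups did not overlap (0.31 ± 0.15, adjusted p = 0.390). Psmc3ip, a meiotic recombination gene, had signals of 40.3 to 95.9 over the 6 arrays, below background, and was not tested.

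The family's level was also followed array by array. Each gene's log2 signal was set against its own mean over the 6 arrays, and the median over the 42 genes was taken on each array. This median was 0.13, 0.04 and 0.11 on branching replicates 1 to 3 and -0.07, -0.03 and -0.16 on non-branching replicates 1 to 3. All branching arrays thus lay above all non-branching arrays, and branching replicate 2 and non-branching replicate 2 lay closest to each other. On the same arrays the median over all genes tested ran from 0.00 to 0.03. Of the 42 genes, 32, 26 and 30 were above their own mean on the branching arrays and 10, 19 and 12 on the non-branching arrays. The core, the base and, by a margin of about 0.01, the lid gave the same order of regions, with core medians of 0.05 to 0.09 in branching and -0.09 to -0.03 in non-branching. The activators and the assembly chaperones did not. Branching replicate 2 lay at -0.21 and non-branching replicate 1 at 0.30 for the 3 activators, and non-branching replicate 2 was the highest array for the chaperones, at 0.15.

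In 10 of the 42 genes the branching values lay above all non-branching values and in 1 below, or 23.8% and 2.38%, while over all genes tested these shares were 10.2% and 11.7%. The 10 include Psmc4, whose non-branching values all lay below background. The family is brighter than most genes, and 38 of the 42 belong to the brighter 3399 genes. Over those 3399 genes the median difference was 0.01 and 51% were higher in branching, while the shares without overlap were 13.8% above and 14.4% below. Whether brightness has a part in the family's counts was not tested.

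**Figure D4:**
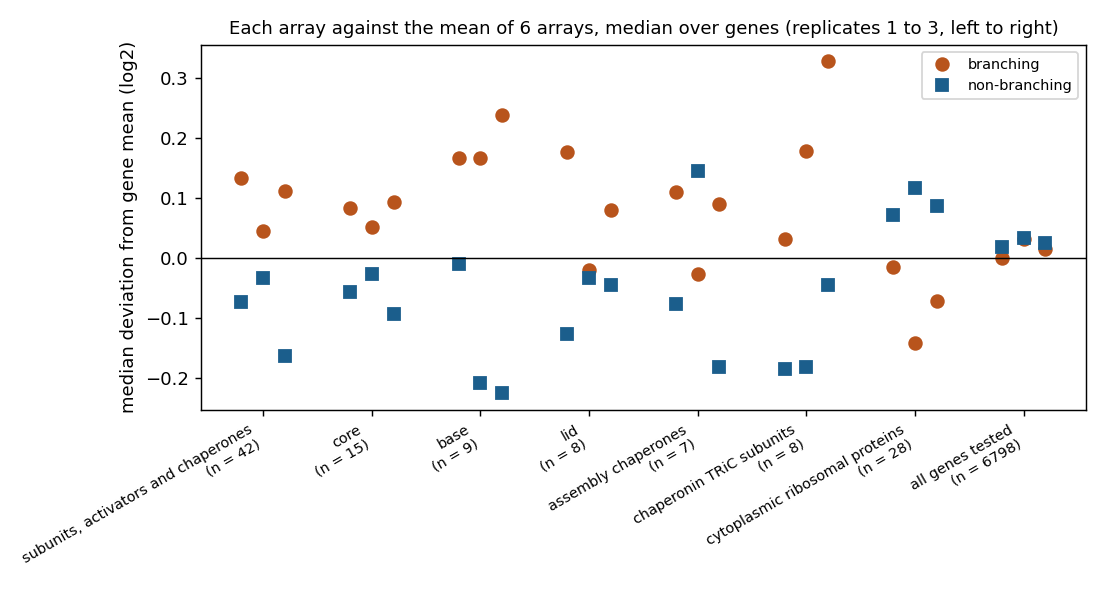
Median deviation of log2 signal from each gene's own mean over the 6 arrays (y axis), for parts of the proteasome and other gene sets (x axis, n genes). Circles are branching and squares non-branching arrays, replicates 1 to 3 from left to right. Branching arrays lie above non-branching arrays for the whole family, the core, the base, the TRiC chaperonin and, narrowly, the lid. They lie below them for ribosomal proteins, and all arrays lie near 0 for all genes.

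Other large protein complexes on the same arrays did not all follow this direction. The 8 genes of the TRiC chaperonin, which folds actin and tubulin, had a median difference of 0.31, with 6 higher in branching and 0 called, and Cct3 differed by 0.41 ± 0.09 (adjusted p = 0.0578). Of 28 genes of cytoplasmic ribosomal proteins, 4 were higher and 24 lower in branching, with a median of -0.16 and 0 called. The difference between these families and the proteasome was not tested.

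Genes that work with the proteasome were also higher in branching more often than lower. Of 35 genes for ubiquitin, its enzymes and partners of the proteasome, 23 were higher (65.7%, against 49% of all genes tested) and 12 lower in branching. None was called, the median difference was 0.08, and 15 of the 35 differences were smaller than their SE. The branching values lay above all non-branching values in 6 genes (17.1%) and below in 3 (8.57%), against 10.2% and 11.7% of all genes tested. Pomp, which matures the core, averaged 2419 in branching and 1942 in non-branching, without overlap (0.32 ± 0.10, adjusted p = 0.178). Nfe2l1, the transcription factor that induces proteasome genes when proteasome activity is low, differed by 0.23 ± 0.11 (adjusted p = 0.383), also without overlap. Nfe2l2, a related factor of the oxidative stress response, differed by -0.01 ± 0.25, and Sem1, the smallest lid subunit, by 0.01 ± 0.10. Uchl1, a ubiquitin hydrolase of neurons, differed by -0.40 ± 0.16 (adjusted p = 0.290), with its branching values below all non-branching ones. The same held for Ube2r2 (-0.32 ± 0.13, adjusted p = 0.302) and Usp9x (-0.26 ± 0.15, adjusted p = 0.494).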

How the data were processed

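The authors deposited 1 intensity per probe set and array on a linear scale. The software behind it is not given in the sources at hand. The deposited scaling was kept. Of 12488 probe sets, 66 controls were left out, and names came from the platform annotation (10833 probe sets with 1 symbol, 396 with several, which were not named, and 1193 with none). Values were raised to a floor of 16 and put on the log2 scale. This floor lies below background, and the differences of dim genes depend on it. Psmc4 differed by 2.01 with it, by 1.18 with a floor of 64 and by 0.37 with a floor at background. For Psmd10 these values were 1.14, 0.80 and 0.42. The dimmest 25% were left out and 9316 probe sets entered the fit (limma 3.58.1, R 4.3.3: lmFit with region as the factor, eBayes with trend, two-sided, Benjamini-Hochberg over all 9316), called at an adjusted p under 0.05. A gene was represented by its brightest probe set. Background was the 95th percentile of 114 values of 19 control probe sets. The number of arrays limits precision, and no detection calls were used.

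The members, parts, lists and motifs were chosen with earlier results of these data known. Values of each array were given for genes that were called, whose regions did not overlap or whose probe sets differed in sign, and for the 2 smallest p in a part with none. The alternatives were other normalizations, filters, floors, variance models, a replicate block, the mean of a gene's probe sets, another threshold, and each array left out.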

Additional observations from a re-analysis of the deposited data

How the results depend on the processing

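The median difference of the 42 genes kept its sign in every setting run, between 0.13 and 0.19, as did those of the core (0.13 to 0.20), the base (0.10 to 0.31) and the lid (0.13 to 0.21). Of the 42 genes, 35 were higher in branching under quantile normalization, 38 with each array centred on its median, and 32 to 37 with an array left out. With the mean of a gene's probe sets, 33 were higher. The median of the 3 activators (0.05) ran from -0.12 to 0.22. The core median was 0.20 with each array centred on its median, and the base median ran from 0.10 to 0.31 with an array left out. Genes called higher numbered 1 in the reported fit, 0 with no filter on dim probe sets, with no variance trend and with a floor at background (chosen after seeing the data; Psmd12 adjusted p = 0.0520), 2 with the dimmer 50% left out (Psme3 added, adjusted p = 0.0498), 3 at an adjusted p under 0.10 (Psmc2 and Psme3 added), and 0 to 1 with an array left out. Genes called lower numbered 0 in all settings. Over all probe sets tested, calls fell from 189 to 100 with no filter and to 22 without the trend, were 359 at an adjusted p under 0.10, and ran from 61 to 150 with an array left out. With the replicate number as a block they were 114 and Psmd12 passed (adjusted p = 0.0415). Same-numbered arrays did not deviate together (correlations of -0.02 to 0.01, and of -0.05 to 0.05 for the other pairs). With 3 arrays per region this cannot decide whether the numbers pair the samples, and the sources used here do not say. With an array left out, the sign turned in at least 1 fit for 13 of the 42 genes (Psmb1, Psmb3, Psmb4, Psmb10, Psmd2, Psmd4, Psmd5, Psmd8, Psmd9, Psmd11, Psme4, Psmg2 and Psmg4). Among the genes given in full, signs turned for Psmb5 (-0.025) and Psmg3 (-0.32) with the mean of a gene's probe sets, for Psmd11 without branching replicate 1 (range with an array left out -0.063 to 0.13), and for Psmb10 (-0.46 to 0.10) without branching replicate 3, non-branching replicate 1 or non-branching replicate 2. The causes were not tested.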
